A study of Mus musculus with 21 samples.

Results

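The direct comparison of 2 small-molecule inhibitors of RNA polymerase I, BMH-21 and CX-5461, was made on the 6 libraries taken after 2 h of treatment, 3 with each inhibitor, out of 21 libraries in the series. Libraries were assigned to the groups by their labels, and the columns of BMH-21 at 2 h were set against those of CX-5461 at 2 h. The cells were E14 mouse embryonic stem cells of the 129 strain, a line derived from early embryos and grown in serum with leukaemia inhibitory factor, which holds them in a self-renewing state. They were plated the day before and given fresh medium with 1 µM BMH-21 or 1 µM CX-5461, so both groups share the cell line, the medium, the dose and the time. The series also holds untreated cells (0 h) and both inhibitors at 4 h and 8 h, with 3 libraries in each of the 7 groups. The 0 h cells serve both inhibitors as control, and no vehicle or time-matched medium control was analysed here. E14 is a single line, and nothing in the labels says that the 3 replicates of a group were separate cultures, so p-values measure the spread between these samples, which may be technical. Equal concentration is not stated to mean equal inhibition of RNA polymerase I.

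RNA polymerase I transcribes the ribosomal DNA repeats in the nucleolus. BMH-21 is a planar molecule that intercalates into GC-rich DNA and leads to loss of the polymerase's large subunit; CX-5461 was described as a blocker of polymerase I initiation and has since been reported to bind G-quadruplex DNA and to trap topoisomerase II on DNA. The genes furthest apart between them belong to another pathway. The aryl hydrocarbon receptor (AHR) is a transcription factor that waits in the cytoplasm with HSP90 chaperones, enters the nucleus when it binds a planar aromatic ligand, pairs with ARNT and switches on the Cyp1 genes, which encode cytochrome P450 enzymes that oxidise such ligands. It also switches on its own brakes, Ahrr, a repressor that competes for ARNT, and Tiparp, an ADP-ribosyltransferase that marks AHR.

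The sequences just upstream of the starts of 5 genes higher with BMH-21 are printed because 4 of them are textbook AHR targets. The other, Ccno, is the furthest higher of the named genes outside the AHR list (the naming rule is given with the processing). They come from RefSeq (GRCm38.p6) and are written 5′ to 3′ on the gene's strand. The capitals mark the core letters of the AHR and ARNT response element, GCGTG, searched on both strands, so CACGC is the same motif on the other strand. Cyp1a1 is shown at chr9:57697363-57697612 (+), Cyp1b1 at chr17:79715062-79715311 (-), Ahrr at chr13:74292332-74292581 (-), Tiparp at chr3:65528197-65528409 (+) and Ccno at chr13:112987552-112987801 (+).
Cyp1a1: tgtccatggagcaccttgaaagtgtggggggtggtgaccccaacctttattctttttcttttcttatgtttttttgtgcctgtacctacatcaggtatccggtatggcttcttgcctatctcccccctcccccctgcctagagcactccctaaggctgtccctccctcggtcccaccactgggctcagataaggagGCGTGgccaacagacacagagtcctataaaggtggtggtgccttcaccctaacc
Cyp1b1: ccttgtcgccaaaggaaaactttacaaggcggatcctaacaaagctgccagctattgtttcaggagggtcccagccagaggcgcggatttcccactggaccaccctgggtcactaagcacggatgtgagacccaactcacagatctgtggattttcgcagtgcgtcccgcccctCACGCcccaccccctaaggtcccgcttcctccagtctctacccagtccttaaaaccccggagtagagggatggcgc
Ahrr: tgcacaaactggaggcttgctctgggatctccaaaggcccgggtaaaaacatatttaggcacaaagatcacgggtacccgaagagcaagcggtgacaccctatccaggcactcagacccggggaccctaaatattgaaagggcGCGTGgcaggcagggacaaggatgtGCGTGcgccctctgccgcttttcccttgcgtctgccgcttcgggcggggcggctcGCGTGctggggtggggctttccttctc
Tiparp: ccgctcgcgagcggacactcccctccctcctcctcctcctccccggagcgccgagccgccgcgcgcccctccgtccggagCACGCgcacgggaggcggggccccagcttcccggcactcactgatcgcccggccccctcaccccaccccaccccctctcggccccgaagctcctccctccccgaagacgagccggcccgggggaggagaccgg
Ccno: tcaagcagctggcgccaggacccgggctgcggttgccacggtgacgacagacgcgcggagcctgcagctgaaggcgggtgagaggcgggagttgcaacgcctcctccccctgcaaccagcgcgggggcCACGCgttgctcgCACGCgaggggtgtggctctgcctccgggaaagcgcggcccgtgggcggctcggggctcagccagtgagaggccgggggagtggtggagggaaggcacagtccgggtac
The stretch of Cyp1a1 lies in an intron of a longer Cyp1a1 transcript in GENCODE M21 and holds the motif 54 bases upstream of the RefSeq start. Cyp1b1 holds it 76 bases upstream, on the other strand. The stretch of Tiparp is shortened to end where the GENCODE gene begins, and its match, also on the other strand, starts 133 bases before that end and 170 bases before the RefSeq start at 65528447. Ahrr has 3 matches, at 107, 82 and 27 bases upstream, and Ccno has 2, at 122 and 109 bases upstream. The motif is common: of 32851 promoters in the RefSeq table, 28.2% held it within the same 250 bases, and of the 11000 tested genes with an entry 48.7% did. Those are under 80% of the 14666 genes tested, so no share over all called genes is given. The 7 AHR targets called at 2 h all had an entry, and 4 of them (57.1%) held the motif. These are the 4 printed here, and Cyp1a2, Nqo1 and Nfe2l2 had no match. A match is a run of letters, not a measured binding site.

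The 6 libraries held 47237779 to 57534390 reads over 20900 gene symbols, recovered from the deposited log2 values, and a deposited log2 value of 0 stood for 42 to 58 reads. Replicates differed by more than sampling noise in every pair, where chi-square divided by its degrees of freedom ran from 2.58 to 7.46. The 8 embryonic stem cell markers listed, Pou5f1 and Nanog among them, were expressed in every library and summed to between 4490 and 4660 RPM (reads scaled to a common library total) in the BMH-21 libraries and between 4560 and 4630 RPM in the CX-5461 libraries. None of the 8 was called between the inhibitors by limma, and 3 had an unadjusted p under 0.05. Markers of primitive endoderm summed to 17.9 to 19.1 RPM (BMH-21) and 15.8 to 18.2 RPM (CX-5461), those of trophectoderm to 9.75 to 11.4 and 10.5 to 11, and those of fibroblasts, which could come from feeder cells, to 29.4 to 32.5 and 31.0 to 31.7. None of those markers was at 0 in all 3 libraries of a group, and the lowest fibroblast marker had at most 1 read. A smaller number of cells of a type and less RNA per cell cannot be told apart in such bulk samples. The size factor of each library, worked out from the deposited values, lay between 0.852 and 0.981 for BMH-21 and between 0.892 and 1.046 for CX-5461. Each library was therefore centred on its median over the tested genes. For the 2 h counts and some 2 h differences the deposited scale is given beside it. The median difference between the inhibitors over all genes was 0.02 after centring, 0.09 as deposited, 0.00 with quantile normalization and 0.00 with median-ratio factors, all in log2.

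At 2 h the inhibitors differed in many genes, but by little in most of them. Of 14666 genes tested with limma (a value above 0 in at least 3 of 21 libraries, Benjamini-Hochberg adjusted p under 0.05, the meaning of "called" below), 2261 or 15.4% were called. Those higher with BMH-21 numbered 1149 (7.83%) and those lower 1112 (7.58%). The median size of a called difference was 0.27 in log2, and 80.9% of the called genes were under 0.5 apart. At least 2-fold differences were called in 75 genes (0.511%), of which 31 were higher (0.211%) and 44 lower (0.3%) with BMH-21. The excess of lower genes among these turned with the processing. Against 31 higher and 44 lower, the split was 42 and 32 as deposited, 27 and 21 with quantile normalization, and 19 and 15 with the low-value filter applied to the 6 libraries at 2 h. It was 96 and 70 with no filter, 25 and 15 with an offset of 5 reads, and 17 and 10 with values below 0 set to 0. As deposited, without centring, 585 genes were called (3.99%), 362 higher and 223 lower, and 578 of them were also called after centring. The share of called genes that were lower thus went from 49.2% to 38.1%, and it was 58.0% with quantile normalization and 61.4% with median-ratio factors. The values of the 3 BMH-21 libraries did not overlap those of the 3 CX-5461 libraries in 34.2% of all genes tested. Set against the shared untreated libraries, 36% of genes were called with BMH-21 and 33.6% with CX-5461. With 3 against 3 a permutation test of a single gene cannot go below p = 0.1, so calls rest on the spread shared across genes.

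**Figure D1:**
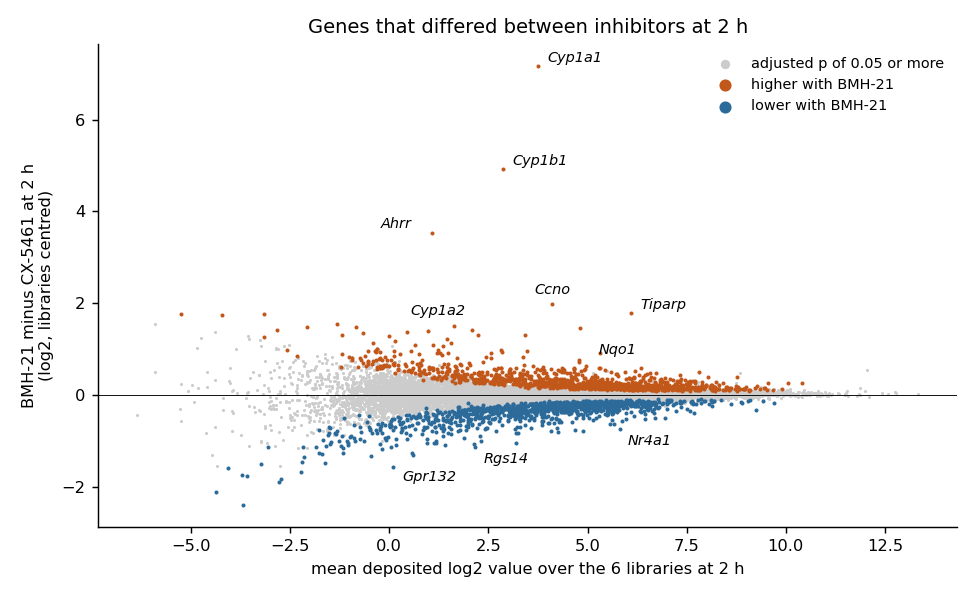
Difference between the inhibitors at 2 h (y axis, log2, centred libraries) against the mean deposited log2 value over the 6 libraries at 2 h (x axis), with 1 point for each of 14666 genes. Orange points were called higher with BMH-21, blue points lower, and grey points were not called. Cyp1a1 at 7.17, Cyp1b1 at 4.92 and Ahrr at 3.53 stand above all other genes.

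Cyp1a1, the cytochrome P450 most used as a readout of AHR activity (ENSMUSG00000032315.6, GRCm38 chromosome 9, 57687928 to 57703824), was the gene furthest apart. It had 7383, 8456 and 7460 reads in the 3 BMH-21 libraries, 56, 51 and 64 with CX-5461, and 44, 57 and 30 in untreated cells. The BMH-21 libraries were far above all others and the CX-5461 libraries lay close to the untreated ones. The difference was 7.17 in log2 (SE 0.16, limma adjusted p = 1.4e-19), which is 144-fold. Against untreated cells the difference was 7.57 with BMH-21 and 0.40 with CX-5461, the latter with an adjusted p of 0.05.

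Cyp1b1, which encodes a related cytochrome P450 outside the liver (chromosome 17, 79701537 to 79715061), had 1736, 2202 and 1869 reads with BMH-21, 58, 59 and 88 with CX-5461, and 40, 42 and 29 in untreated cells. The groups did not overlap, and BMH-21 was 30.3-fold higher (4.92 in log2, SE 0.13, limma adjusted p = 9.3e-18). Unlike Cyp1a1, Cyp1b1 was also higher than untreated with CX-5461, by 0.85 in log2 (limma adjusted p = 2.2e-05).

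Ahrr, the AHR repressor (chromosome 13, 74211118 to 74292331), had 314, 368 and 341 reads with BMH-21 against 29, 32 and 32 with CX-5461. Untreated cells had 33, 28 and 30, so the CX-5461 libraries sat within or at the edge of the untreated range. BMH-21 was 11.5-fold higher (3.53 in log2, SE 0.15, limma adjusted p = 6.7e-14). Ahrr was above the low-value filter in BMH-21 libraries alone, so it entered the test through the group where it was high.

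Tiparp (chromosome 3, 65528410 to 65555518) was well expressed in all libraries and moved in opposite directions. It had 5602, 6895 and 5956 reads with BMH-21, 1640, 2033 and 1989 with CX-5461, and 2687, 2421 and 2456 in untreated cells. Against untreated cells it was 1.35 higher with BMH-21 (limma adjusted p = 4.8e-16) and its difference with CX-5461 was -0.44 (limma adjusted p = 2.4e-07), both in log2. The inhibitors were 3.47-fold apart (1.79 in log2, SE 0.05, limma adjusted p = 1.6e-17). A pseudogene model on the other strand overlaps its first exon, and whether reads were counted by strand is not given in the sources used here.

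Cyp1a2, a cytochrome P450 of caffeine and arylamine metabolism that neighbours Cyp1a1 on the other strand (chromosome 9, 57676937 to 57683703), had 303, 357 and 339 reads with BMH-21, 107, 148 and 142 with CX-5461, and 104, 111 and 89 in untreated cells. The difference was 1.43 in log2 (SE 0.10, limma adjusted p = 4.2e-10). Cyp1a1 and Cyp1a2 are paralogs with similar sequence, and how reads matching both were counted is not given, so the smaller Cyp1a2 signal is uncertain.

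Nqo1 and Nfe2l2, which AHR shares with the oxidative stress response, were apart by less. Nqo1, a quinone reductase, had 1926, 2347 and 1832 reads with BMH-21 against 1351, 1707 and 1751 with CX-5461, a difference of 0.43 in log2 (SE 0.05, limma adjusted p = 9.6e-07). Nfe2l2, which encodes the stress factor NRF2, had 3378, 4147 and 3364 reads with BMH-21 against 2600, 3070 and 3216 with CX-5461, a difference of 0.38 (SE 0.04, limma adjusted p = 2.0e-07). The groups of neither gene overlapped, on raw reads or after centring.

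Of the 15 genes on the AHR target list, 10 were tested, 7 were called higher with BMH-21 and none lower, where 7.83% and 7.58% of all genes were. Against untreated cells 8 of the 10 were called higher and 0 lower with BMH-21, where 18.6% and 17.5% of all genes were. With CX-5461 5 were called higher and 2 lower, where 15.8% and 17.8% of all genes were. The median difference of the 10 was 0.93 against 0.02 over all genes, a description only, since the list was drawn up with results of these data known and Ahrr passed the filter through BMH-21. Cyp2s1, an extrahepatic P450, differed by 0.27 (limma adjusted p = 0.061), Aldh3a1, an aldehyde dehydrogenase, by -0.02 (0.05 as deposited) and Stc2, a secreted glycoprotein, by 0.04, and none of these was called. Cyp2s1 was called with voom weights (0.27, limma adjusted p = 0.044), in a fit of the 6 libraries alone (0.27, limma adjusted p = 0.0043) and with a trend with GC content removed (0.32, limma adjusted p = 0.028). The other 5, Ugt1a6a, Ugt1a6b, Gsta1, Serpinb2 and Xdh, had at most 6 reads in any library at 2 h and were not tested.

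The receptor and its partners were not among the genes called. Ahr itself had 536, 640 and 617 reads with BMH-21 against 534, 676 and 612 with CX-5461, and the groups overlapped. The 5 genes of the AHR complex described here differed by -0.01 to 0.08 in log2, none was called by limma, and none had an unadjusted p under 0.05. The signs of Arnt, the nuclear partner, of Hsp90ab1, an HSP90 chaperone, and of Ptges3, its p23 co-chaperone, flipped between scalings, and over all alternatives their values ran from -0.01 to 0.09, 0.00 to 0.11 and -0.05 to 0.06. Against untreated cells Ahr was higher by 0.44 with BMH-21 (limma adjusted p = 0.00017) and by 0.37 with CX-5461 (limma adjusted p = 0.0011).

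**Figure D2:**
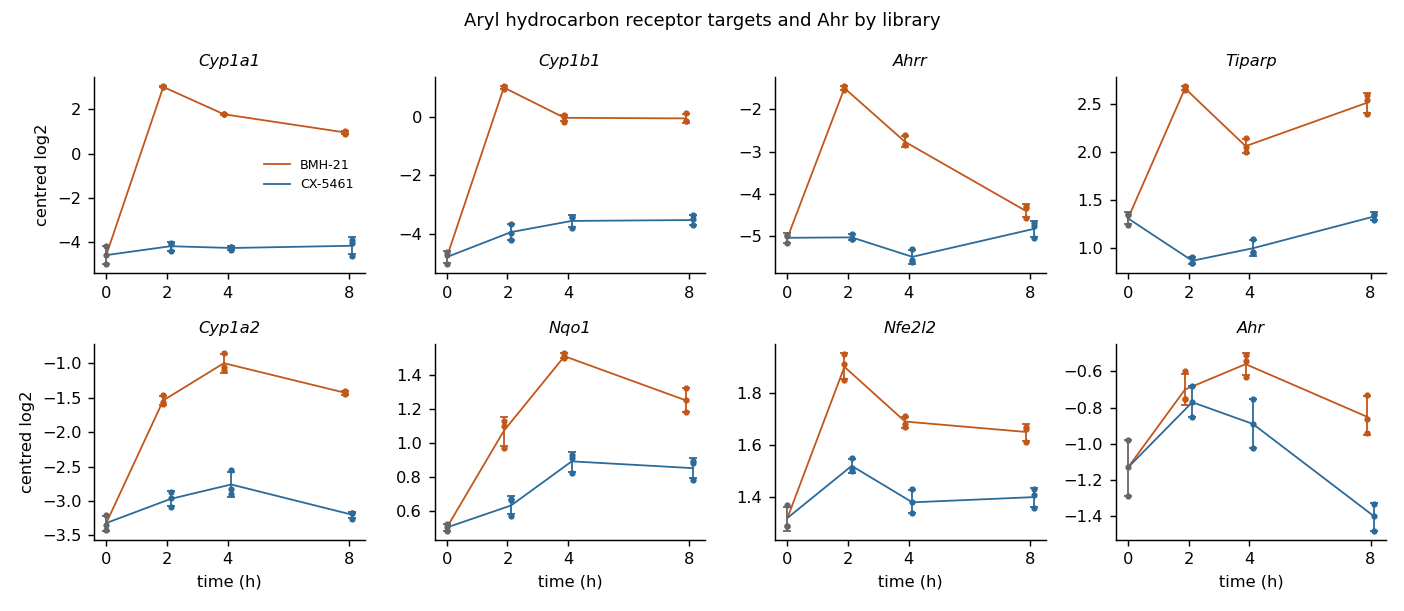
Centred log2 values (y axis) of 7 AHR targets called at 2 h and of Ahr itself over time in h (x axis), with 1 point per library, lines through group means and bars of 1 SD (n = 3). Orange is BMH-21, blue CX-5461 and grey untreated. The targets are higher with BMH-21 at 2 h in all 3 libraries, while Ahr overlaps between the inhibitors at that time, and the scale differs between panels.

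The AHR difference was largest at 2 h for some targets and not for others. Cyp1a1 was 7.17 apart at 2 h, then 6.02 and 5.10. Its BMH-21 libraries had 3505 to 3614 reads by 4 h and 2190 to 2986 by 8 h, where the CX-5461 libraries had 45 to 87. Cyp1b1 was 4.92, 3.50 and 3.46 apart. Ahrr shrank most, from 3.53 to 2.72 and then to 0.43, with 49, 72 and 63 reads with BMH-21 against 47, 38 and 42 with CX-5461 at 8 h. The Ahrr difference at 8 h was unlike that at 2 h (difference of differences 3.10, limma adjusted p = 1.3e-11). Tiparp was 1.79, 1.06 and 1.17 apart. Cyp1a2 did not shrink, at 1.43, 1.76 and 1.78, and Nqo1 was 0.43, 0.63 and 0.40 apart, where neither the 4 h nor the 8 h value was called unlike 2 h (limma adjusted p = 0.058 and 0.65). Aldh3a1, level between the inhibitors at 2 h, was 0.40 higher with BMH-21 at 4 h and 0.92 at 8 h, and Ahr was 0.33 and 0.56 higher.

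Outside the AHR list, the named gene most above CX-5461 was Ccno, an atypical cyclin needed to make many centrioles in multiciliated cells (chromosome 13, 112987802 to 112990777). It had 1472, 1908 and 1579 reads with BMH-21, 358, 497 and 493 with CX-5461, and 453, 448 and 351 in untreated cells. The CX-5461 libraries matched the untreated range, with no called change (0.08, limma adjusted p = 0.56), and BMH-21 was 3.93-fold above CX-5461 (1.97 in log2, SE 0.10, limma adjusted p = 9.9e-13). The difference narrowed to 1.12 at 4 h and 0.88 at 8 h.

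The other 6 of the 12 largest higher genes were of mixed function. Pcdh8, an activity-regulated protocadherin (an adhesion protein), had 227, 268 and 253 reads with BMH-21 against 79, 89 and 114 with CX-5461. Cd209c, a C-type lectin of the DC-SIGN family, had 2121, 2644 and 1931 against 731, 927 and 929, the deepest of the group. Itih3, a protein that binds hyaluronan in the matrix, had 155, 150 and 153 against 54, 66 and 65. In none of these 3 did the groups come near each other, and their differences were 1.51, 1.46 and 1.40 in log2. Igfbp5, a secreted binder of insulin-like growth factors, had 104, 115 and 95 against 47, 50 and 33 reads, a difference of 1.37. The noncoding Dbhos had 772, 975 and 714 against 321, 384 and 342 reads, a difference of 1.31. The pseudogene transcript 4930519F09Rik had 351, 385 and 329 against 129, 163 and 166 reads, also 1.31. Of these, Igfbp5, Dbhos and 4930519F09Rik had no called change with CX-5461 against untreated cells (0.03, 0.16 and -0.02), whereas Pcdh8, Cd209c and Itih3 were above untreated with both inhibitors and further with BMH-21. Gene models on the other strand overlap exons of Pcdh8 and 4930519F09Rik. All 6 stayed higher with BMH-21 at 4 h (1.00 to 1.79) and 8 h (1.02 to 2.05).

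The 2-fold list also held genes below the level needed to be named by the rule. Among the 12 of the 31 with a mean deposited log2 value under 0 were Vcam1, Gpr176 and Krt6b, each resting on few reads. Ptgs2, the inducible cyclooxygenase, lay above that level but outside the 12 largest and was 1.10 higher (limma adjusted p = 4.5e-05). These 4 were singled out after their values were seen.

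The named genes most below CX-5461 were mostly genes that CX-5461 raised further. Of the 44 genes at least 2-fold lower, 31 lay below the level needed to be named. Their median difference was -1.26, and their medians against untreated cells were 0.01 with BMH-21 and 1.43 with CX-5461. Gpr132, a receptor coupled to G proteins (chromosome 12, 112850873 to 112868228), had 24, 41 and 26 reads with BMH-21, 81, 100 and 101 with CX-5461, and 13, 22 and 15 in untreated cells. Both inhibitors were above untreated and BMH-21 lay between, with a difference from CX-5461 of -1.56 (SE 0.16, limma adjusted p = 2.3e-07). Rgs14, a regulator of G protein signalling (chromosome 13, 55369732 to 55384687), had 136, 164 and 135 reads with BMH-21, 303, 327 and 383 with CX-5461, and 56, 48 and 42 in untreated cells, a difference of -1.13 (SE 0.07, limma adjusted p = 1.8e-10). Artn, a ligand of the RET receptor system that supports neurons, had 46, 52 and 39 against 106, 126 and 120 reads, and 22, 25 and 22 in untreated cells, a difference of -1.27. The same order, untreated below BMH-21 below CX-5461, was seen in these 3 genes in every library.

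Edaradd, the adaptor of the ectodysplasin receptor, had 27, 32 and 41 reads with BMH-21 against 80, 82 and 69 with CX-5461 (-1.12). Apol8, of the apolipoprotein L family, had 85, 84 and 93 against 189, 191 and 214 (-1.09). Sowahb, an ankyrin-repeat protein, had 300, 344 and 277 against 584, 682 and 770 (-1.05) and is a single-exon gene. Against untreated cells these 3 were called higher with both inhibitors, by 0.73 to 1.24 (BMH-21) and by 1.85 to 2.30 (CX-5461). Hey2, a repressor downstream of Notch, had 56, 79 and 60 against 142, 107 and 184 reads (-1.04). Fam212a had 83, 75 and 61 against 137, 175 and 166 reads (-1.04), and Fam163b had 59, 81 and 87 against 158, 148 and 190 (-1.05). Both inhibitors raised all of these too, and the spread of the CX-5461 libraries was widest for Hey2.

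Snai3, Tram1l1 and Ppapdc2 had other patterns. Snai3, a zinc finger repressor of the Snail family, had 122, 185 and 138 reads with BMH-21, 297, 349 and 335 with CX-5461, and 171, 187 and 148 in untreated cells, so it was raised with CX-5461 (0.94) and not called with BMH-21 (-0.13, limma adjusted p = 0.29). Tram1l1, a single-exon relative of a protein translocation factor, had 33, 55 and 53 against 111, 128 and 128 reads, with 81, 82 and 62 untreated. It was called below untreated with BMH-21 (-0.62) and above it with CX-5461 (0.69). Ppapdc2, a single-exon lipid phosphatase gene, had 43, 35 and 32 reads with BMH-21, against 77, 85 and 86 with CX-5461 and 102, 94 and 93 untreated, and it was called below untreated with BMH-21 (-1.32) and not with CX-5461 (-0.24). A protein-coding model on the other strand overlaps Ppapdc2. These 12 lower genes kept their direction and call under every alternative in which they were tested. Artn, Fam212a, Tram1l1 and Ppapdc2 left the test when values above 2 were required. Of the 12, 8 had at most 190 reads in any library at 2 h.

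**Figure D3:**
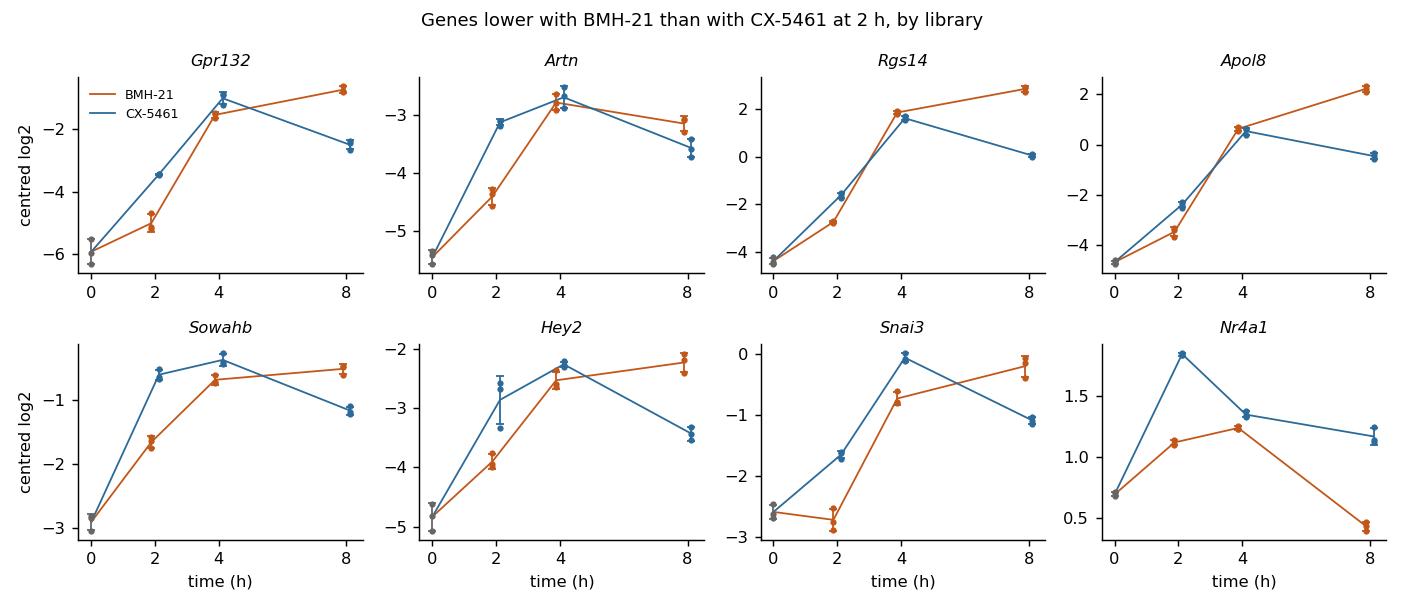
Centred log2 values (y axis) over time in h (x axis) of 8 genes lower with BMH-21 than with CX-5461 at 2 h, with 1 point per library, lines through group means and bars of 1 SD (n = 3). Orange is BMH-21, blue CX-5461 and grey untreated. In 7 of the 8 panels the blue line is above at 2 h and below at 8 h, and Nr4a1, where BMH-21 stays below, is the exception.

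By 8 h both sides of the 2-fold list were mostly higher with BMH-21, with medians of 1.36 and 1.44. The 31 genes at least 2-fold higher at 2 h were mostly still higher later: 24 were called higher at 4 h and 1 lower, where 27.4% of all genes were called higher, and 27 were called higher and 0 lower at 8 h, where the share of all genes was 31.1%. Of the 44 at least 2-fold lower, 12 were called lower and 1 higher at 4 h, where 18.5% of all genes were called lower. At 8 h 36 of the 44 were called higher with BMH-21 and 0 lower, with a median difference of 1.44, and 43 were called unlike their 2 h difference. Their median against untreated cells at 2 h was 0.44 with BMH-21 and 1.59 with CX-5461. The genes were chosen for their 2 h difference, and 31 of the 44 were low, with a mean deposited log2 value under 0. At that level 56.1% of all genes were called higher and 12.7% lower at 8 h. A gene low at 2 h could pass the filter through values above 0 in other groups, those at 8 h included. Entry may thus favour genes high at 8 h, and how far was not tested. With the filter on the 6 libraries at 2 h, 15 genes were called at least 2-fold lower at 2 h in place of 44. Among the 13 of the 44 with a mean of at least 0, 10 were called higher and 0 lower at 8 h. Of the 31 higher genes, 12 also had a mean under 0, and 10 of these were called higher and 0 lower at 8 h. Of the 19 with a mean of at least 0, 17 were called higher and 0 lower.

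Rgs14 went from -1.13 at 2 h to 0.24 at 4 h and 2.80 at 8 h. Apol8 went from -1.09 to 0.09 and 2.67, and Gpr132 from -1.56 to -0.53 and 1.76. Edaradd went from -1.12 to -0.02 and 1.83, and Hey2 from -1.04 to -0.27 and 1.20. Each of these 8 h differences was called unlike the one at 2 h (limma, difference of differences). Tram1l1 and Ppapdc2 did not turn: at 8 h they were 0.01 and -0.09 apart after centring, with neither called.

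**Figure D4:**
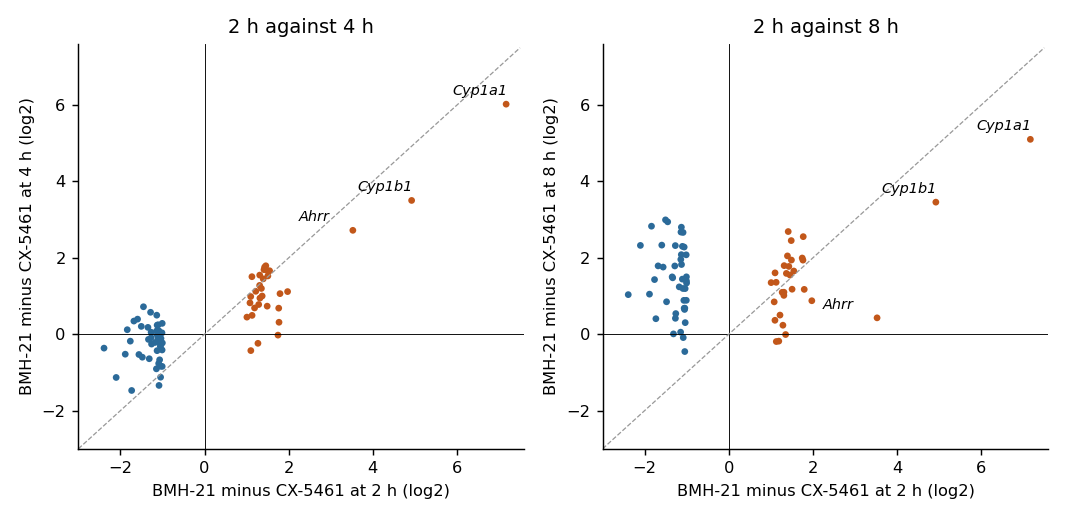
Difference between the inhibitors at 4 h (left) and 8 h (right) on the y axis against that at 2 h on the x axis, all in log2, for the 75 genes called and at least 2-fold apart at 2 h. Orange genes were higher and blue genes lower with BMH-21 at 2 h, and the dashed line marks equal differences. At 8 h 42 of the 44 blue points lie above 0 after centring, and genes low at 2 h could pass the filter through other groups.

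Over all called genes, not the 2-fold ones alone, the picture was more mixed, and the shares of all tested genes called higher and lower were 27.4% and 18.5% at 4 h and 31.1% and 40.6% at 8 h. Of the 1149 called higher at 2 h, 781 were called higher (68.0%) and 77 lower (6.7%) at 4 h, and 499 higher (43.4%) and 377 lower (32.8%) at 8 h. Of the 1112 called lower, 100 were called higher (8.99%) and 629 lower (56.6%) at 4 h, and at 8 h 558 were called higher (50.2%) and 384 lower (34.5%). The contrast of the 2 h difference with the 4 h difference called 2460 genes (16.8%), 7.72% of all genes with the higher difference at 2 h and 9.05% with the lower. That with the 8 h difference called 9075 (61.9%), 36.9% higher and 25% lower at 2 h. The share of those calls with the lower difference at 2 h was 54.0% at 4 h and 40.4% at 8 h. As deposited it was 33.2% and 12.3%, and with median-ratio factors 42.0% and 50.2%, so the scaling moved this split more than the count at 8 h. Without the low-value filter it was 65.5% for 4 h.

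Targets of p53, the tumour suppressor that nucleolar stress stabilises, were mostly raised with both inhibitors, and the direct comparison split them. Of 30 tested, 24 were called above untreated cells with BMH-21 and 2 below, and 23 above and 2 below with CX-5461, where 18.6% and 15.8% of all genes were called above and 17.5% and 17.8% below. Between the inhibitors 6 were called higher with BMH-21 (20.0%) and 8 lower (26.7%), beside 7.83% and 7.58% of all genes, the shares to set beside each list that follows. Their median difference was -0.03 (0.04 as deposited), near that of all genes, and their medians against untreated cells were 0.88 with BMH-21 and 1.16 with CX-5461. Eda2r, a receptor of the tumour necrosis factor family, had 4769, 6236 and 5205 reads with BMH-21 against 3670, 4475 and 4252 with CX-5461 (0.47, limma adjusted p = 8e-06). Pmaip1, which encodes the cell death protein NOXA, differed by 0.47 as well (limma adjusted p = 7.5e-06). On the other side were Apaf1, the apoptosome scaffold, at 2005, 2506 and 2219 against 2788, 3241 and 3237 reads, and Pidd1, which activates caspase-2, at 2634, 3416 and 2721 against 3488, 4283 and 4265. Both differed by -0.37, with limma adjusted p of 8.9e-06 and 8.8e-06, and neither was called as deposited (-0.30 each). Cdkn1a, the cell cycle inhibitor p21, was 0.14 apart and Mdm2, which degrades p53, was not called at -0.09 (limma adjusted p = 0.1).

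Immediate early genes, which respond to signals within minutes to hours, were called higher with BMH-21 in 7 of 24 tested (29.2%) and lower in 2 (8.33%), with a median of 0.05. Nr4a1, a nuclear receptor, had 1948, 2294 and 2057 reads with BMH-21, 3315, 3870 and 3947 with CX-5461, and 1732, 1644 and 1556 in untreated cells. Both inhibitors raised it, CX-5461 further, with a difference of -0.73 (SE 0.04, limma adjusted p = 2.6e-12). Klf6, a zinc finger factor, had 1768, 2030 and 1779 reads with BMH-21, 1066, 1388 and 1396 with CX-5461, and 3165, 3082 and 2860 untreated. It was lower than untreated with both and lower still with CX-5461, a difference of 0.63 (SE 0.04, limma adjusted p = 6.7e-10). Ier3, an early survival gene, was 0.51 apart (limma adjusted p = 0.00073), with BMH-21 at the untreated level. Edn1, the vasoconstrictor endothelin, was 0.81 apart (limma adjusted p = 0.0069) on 16 to 48 reads, and with values below 0 set to 0 it was -0.07 and not called. Fos and Egr1 overlapped between the inhibitors and differed by -0.02 and 0.07.

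Signalling feedback genes, which the LIF, WNT, FGF and BMP pathways of stem cells switch on, were called higher in 4 of 21 (19.0%) and lower in 5 (23.8%), beside 7.83% and 7.58% of all genes. Axin2, the WNT feedback gene, had 949, 1213 and 1140 reads with BMH-21, 672, 853 and 890 with CX-5461, and 1299, 1430 and 1363 in untreated cells, a difference of 0.54 (limma adjusted p = 4.6e-05). Dusp4, a phosphatase of ERK, was 0.41 apart and Id2, a BMP-responsive inhibitor of helix-loop-helix factors, 0.35, while its relative Id1 was at -0.28. Id1 lost its call as deposited (-0.21) and without BMH-21 replicate 3 (-0.22). Axin2 and Dusp4 changed sides: at 4 h they were at -0.51 and -0.62, and at 8 h at -0.89 and -1.12. Among 20 pluripotency factors, 2 were called higher (10%) and 1 lower (5%), with a median of 0.06. Klf5 was at 0.35 (limma adjusted p = 0.0013), Tdgf1, a Nodal co-receptor, at 0.15 and Fgf4 at -0.13, and the latter pair was not called as deposited (0.22 and -0.06). Pou5f1, Sox2 and Nanog, the core factors, were at 0.05, -0.11 and -0.06 and were not called.

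The mRNAs of RNA polymerase I genes and nucleolar assembly factors were called in 20.0% and 12.5% of those tested, beside 15.4% of all genes. Ribosomal RNA synthesis itself was not measured in these poly(A) libraries. Of 15 RNA polymerase I genes, 2 were called higher, Twistnb (0.20) and Taf1d (0.19), and 1 lower, Ubtf (-0.20), the factor that holds ribosomal DNA open. Of 24 nucleolar assembly factors, 2 were called higher, Nop58 (0.14) and Pes1 (0.12), and 1 lower, Gnl3 (-0.13). None of these 6 was called as deposited. Without 1 of the libraries Nop58 lost its call in 5 of 6 fits (all but without CX-5461 replicate 1, 0.12 to 0.15), Pes1 in 4 (without BMH-21 replicate 1 or 2 or CX-5461 replicate 2 or 3, 0.11 to 0.12) and Gnl3 in 4 (without BMH-21 replicate 2 or 3 or CX-5461 replicate 1 or 3, -0.13 to -0.10). Reads of snoRNAs inside Taf1d, Nop58 and Gnl3 may be counted in them. The medians of both lists, 0.02 and 0.01, were at that of all genes. Of 20 topoisomerase and DNA damage response genes, 3 were called higher and none lower. Top2a, the proliferative topoisomerase II, had 50484, 62723 and 54643 reads with BMH-21 against 42823, 51830 and 54130 with CX-5461 (0.26, limma adjusted p = 0.00039), with no called change from untreated cells with BMH-21 (-0.04) and a lower level with CX-5461 (-0.31). Top1 was at 0.18 and Chek1, a checkpoint kinase, at 0.12, and neither was called as deposited (0.25 and 0.19). Chek1 lost its call when any 1 of the 6 libraries was left out (0.10 to 0.14).

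The stress lists held calls at 2 h in 18.2% to 28.6% of their tested genes, a few members each, where 15.4% of all genes were called. Among 13 NRF2 targets, 3 were called higher and none lower, with Gclc, the enzyme that limits glutathione synthesis, at 0.37 (limma adjusted p = 2.7e-06), Tkt at 0.15 and Txnrd1 at 0.14. Among 14 genes of P-TEFb and elongation, 3 were called higher, Hexim1 (0.32) and Mepce (0.26), both parts of the 7SK complex that holds P-TEFb inactive, and Ell2 (0.23), and 1 lower, Cdk9 (-0.15), the kinase of P-TEFb. ATF4 targets split 2 to 2 of 14, with Atf5 at 0.60 and Ddit3 at 0.38 higher and Trib3 at -0.31 and Atf4 itself at -0.26 lower. Atf5 had 2120, 2541 and 2225 reads with BMH-21, 1550, 1687 and 1601 with CX-5461, and 997, 893 and 1015 in untreated cells, with no overlap between the inhibitors. Of 11 heat shock genes, Dnajb1 (0.17) and Bag3 (0.15) were called higher and none lower. Of 14 retinoic acid genes, Rara (-0.17) and Rarg (-0.10) were called lower and none higher. As deposited, no call was left for Tkt, Txnrd1, Mepce, Ell2, Cdk9, Trib3, Atf4, Dnajb1, Bag3, Rara or Rarg. Leaving out any 1 library ended the call of Rarg (-0.11 to -0.09). Any but CX-5461 replicate 1 did so for Bag3 (0.13 to 0.15), and any but BMH-21 replicate 1 or CX-5461 replicate 2 for Cdk9 (-0.16 to -0.10). Txnrd1 was not called without BMH-21 replicate 2 (0.11) or CX-5461 replicate 1 (0.13), nor Ddit3 without BMH-21 replicate 1 (0.32).

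Genes of the 2-cell embryo stage, which a small share of stem cells expresses, were called higher in 2 of 15 tested (13.3%) and lower in none, with a median of 0.17. The called members were Usp17lb and Tcstv1, both at 0.64, with limma adjusted p of 0.011 and 0.016, and both belong to families of near-identical copies between which reads can be split. Usp17lb was not called without BMH-21 replicate 1 (0.58) or CX-5461 replicate 3 (0.50), nor Tcstv1 without BMH-21 replicate 1 (0.55) or CX-5461 replicate 1 (0.46). Dux, the factor that activates this programme, was 0.17 apart and its groups overlapped. Of the primitive endoderm markers, Sox7 was the 1 called of 6 tested (0.65, limma adjusted p = 0.0021), with 201, 221 and 209 reads against 154, 145 and 130. No trophectoderm or fibroblast marker was called by limma, and none had an unadjusted p under 0.05.

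The direction of a call went with the base composition of the gene. GC content of the transcript, from GENCODE M21, was known for 99.4% of the genes tested. In the 10% of genes with the lowest GC content, 12.5% were called higher and 3.09% lower with BMH-21, and in the 10% with the highest, 5.83% were called higher and 16.6% lower. The median difference went from 0.06 to -0.04. Each of the 6 libraries was set against their mean, and the median of the highest GC decile minus that of the lowest was taken. It was -0.09 to -0.03 in the 3 BMH-21 libraries and 0.04 to 0.07 in the 3 CX-5461 libraries, so the groups did not overlap. Group means of opposite sign follow from the shared mean. Against untreated cells both inhibitors had a trend of the same sign, wider with CX-5461. From the lowest to the highest decile the median went from -0.03 to 0.02 with BMH-21 and from -0.11 to 0.05 with CX-5461. After a trend with GC was removed from each library, an alternative added after seeing the data, 2290 genes were called (1261 higher and 1029 lower), and 1987 genes were called with the same sign in both fits. The trend differed between the groups, and an effect of the inhibitor cannot be told apart here from one of library preparation. Most calls were made with and without the trend.

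Single-exon genes were also more often lower. Of 295 protein-coding genes with 1 exon, 23.7% were called lower and 7.12% higher, against 7.15% lower and 7.83% higher of 13110 with 3 or more exons, and 543 genes with 2 exons lay between at 15.1% lower and 9.58% higher. Among genes under the median GC content, 17.2% of single-exon genes and 4.23% of those with 3 or more exons were called lower, and above that median 26.4% and 10.1%. Of the 42 protein-coding genes at least 2-fold lower, 7 had a single exon, and of the 27 at least 2-fold higher, 0 did, where 2.11% of all protein-coding genes tested have 1.

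**Figure D5:**
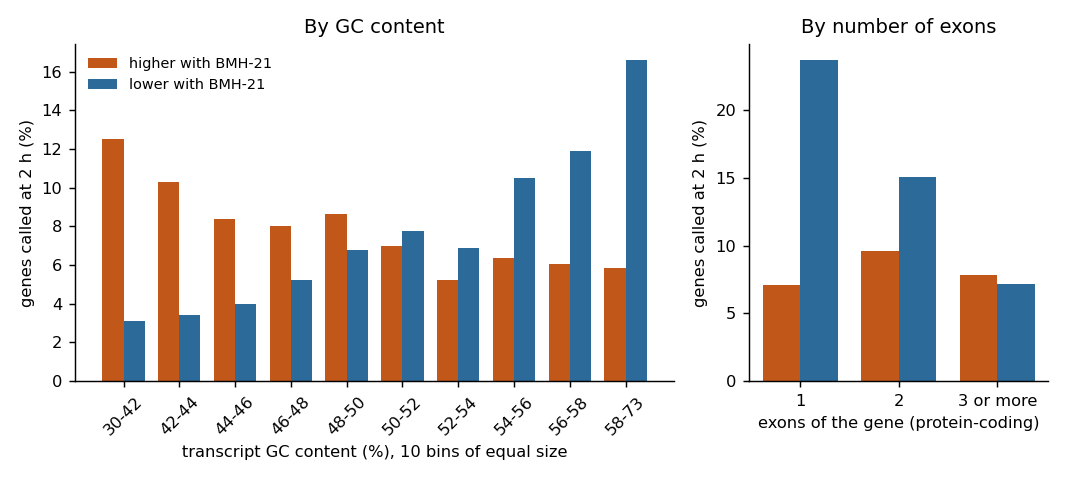
Share of genes called higher (orange) or lower (blue) with BMH-21 at 2 h (y axis, percent), by transcript GC content in 10 bins of equal size (left) and by number of exons of protein-coding genes (right). The lower share goes from 3.09% in the lowest GC bin to 16.6% in the highest, and from 7.15% at 3 or more exons to 23.7% at 1 exon.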

How the data were processed

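Poly(A) RNA libraries were made with a directional kit, per the labels' protocols. The submitters' processing notes name mm10, Trim Galore 0.5.0, TopHat2 2.1.1, R 4.0.5, DESeq2 1.30.1, edgeR 3.32.1 and limma 3.46.0, with no role given. The authors deposited 1 table of log2 values (voom), and its name and values show reads plus 0.5 over a scaled library size. Whole reads were recovered to within 1.7e-08, and all 21 columns were matched to samples by name. PCR duplicates could not be seen in these values.

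Each library was centred on its median over the 14666 genes with a value above 0 in at least 3 of 21 libraries (6234 set aside), and limma 3.58.1 (R 4.3.3) was fitted with 7 group means, eBayes with trend and Benjamini-Hochberg adjustment, two-sided, threshold 0.05. Differences of low genes are understated by the 0.5 offset. The fit was also run on simulated reads with no GC trend, a check of the fitting steps and not of the calls made here. Of 20900 symbols, 20638 (98.7%) matched GENCODE M21 (GRCm38). Named genes were the tested AHR targets and complex genes (1 of the latter is not reported here), the 12 largest called differences each way (mean log2 of at least 0, groups not overlapping), and up to 4 called genes per other list. Genes outside the rule are marked where named, except list members given for their known role (Cdkn1a, Mdm2, Fos, Egr1, Pou5f1, Sox2, Nanog, Dux). The members and lists were chosen with earlier results of these data known. Alternatives were other scalings, filters, offsets, variance models, sample sets, a replicate block, each library left out, and removal of a GC trend. Figures used matplotlib 3.10.9.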

Additional observations from a re-analysis of the deposited data

Results flagged for a closer look

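For the genes named in the report, the difference between the inhibitors at 2 h was set against that at 4 h and 8 h by the difference of differences in limma, and those with an adjusted p under 0.05 over all genes are given here in log2. A positive value means that BMH-21 stood higher relative to CX-5461 at 2 h than later. The groups at the later times were other libraries, but most of these genes were named for a large 2 h difference, so that choice enters the test, and 16.8% of all genes at 4 h and 61.9% at 8 h passed it.

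Among the 12 genes furthest higher with BMH-21, the 2 h minus 4 h value was 1.15 for Cyp1a1, 1.42 for Cyp1b1, 0.81 for Ahrr, 0.86 for Ccno, 0.73 for Tiparp and -0.34 for Cd209c. Against 8 h the values were 2.07 for Cyp1a1, 1.46 for Cyp1b1, 3.10 for Ahrr, 1.10 for Ccno, 0.62 for Tiparp, -0.35 for Cyp1a2 and -0.66 for Itih3. Among the 12 furthest lower, the 2 h minus 4 h value was -1.03 for Gpr132, -0.67 for Tram1l1, -1.18 for Artn, -1.36 for Rgs14, -1.10 for Edaradd and -1.18 for Apol8. Relative to 8 h they came to -3.32 for Gpr132, -1.32 for Tram1l1, -1.69 for Artn, -3.93 for Rgs14, -2.95 for Edaradd and -3.75 for Apol8. In the rest of those 12, the 2 h minus 4 h value was -0.40 for Snai3, -0.73 for Sowahb, -0.77 for Hey2 and -0.93 for Fam212a. With 8 h in place of 4 h they read -0.99 for Ppapdc2, -1.96 for Snai3, -1.70 for Sowahb, -1.73 for Fam163b, -2.23 for Hey2 and -1.34 for Fam212a. In other AHR genes, the 2 h minus 4 h value was -0.42 for Aldh3a1. Set against 8 h they stood at 1.45 for Cyp2s1, -0.94 for Aldh3a1, 0.13 for Nfe2l2, -0.49 for Ahr, 0.57 for Arnt and 0.39 for Ptges3.

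Among p53 targets, the 2 h minus 4 h value was -0.32 for Eda2r, -0.75 for Pmaip1, -0.25 for Apaf1 and -0.36 for Pidd1. At 8 h the comparison gave -0.63 for Eda2r, -1.03 for Pmaip1, -1.86 for Apaf1 and -0.96 for Pidd1. Among immediate early genes, the 2 h minus 4 h value was 1.30 for Edn1, -0.62 for Nr4a1, 1.50 for Klf6 and 0.88 for Ier3. The 8 h comparison yielded 0.73 for Ier3. In pluripotency factors, the 2 h minus 4 h value was 0.41 for Klf5 and 0.81 for Fgf4. Against 8 h the values were 0.67 for Tdgf1 and 1.02 for Fgf4. In signalling feedback genes, the 2 h minus 4 h value was 1.06 for Axin2, 1.03 for Dusp4 and -0.25 for Id2. Relative to 8 h they came to 1.43 for Axin2, 1.53 for Dusp4, -0.36 for Id2 and 0.23 for Id1. In polymerase I and nucleolar genes, the 2 h minus 4 h value was 0.26 for Ubtf, -0.20 for Taf1d and 0.21 for Gnl3. With 8 h in place of 4 h they read 0.57 for Twistnb, 1.08 for Ubtf, 0.28 for Taf1d, 0.65 for Nop58, 0.63 for Gnl3 and 0.26 for Pes1. In topoisomerase and retinoic acid genes, the 2 h minus 4 h value was -0.20 for Top1 and 0.15 for Rarg. Set against 8 h they stood at 0.69 for Top2a, 0.42 for Rara and 0.84 for Rarg. In NRF2 targets and elongation genes, the 2 h minus 4 h value was -0.33 for Gclc, -0.21 for Txnrd1, 0.24 for Hexim1, 0.57 for Mepce and -0.28 for Cdk9. At 8 h the comparison gave 0.50 for Hexim1, 0.55 for Mepce and 0.43 for Ell2. In ATF4 and heat shock genes, the 2 h minus 4 h value was -0.36 for Trib3, 0.26 for Atf4, -0.47 for Dnajb1 and 0.24 for Bag3. The 8 h comparison yielded -0.42 for Atf5, -0.81 for Ddit3, -0.67 for Trib3, -0.60 for Dnajb1 and 1.07 for Bag3.

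Every value given for the 12 furthest lower genes and for the 4 p53 targets is negative, and the immediate early, signalling feedback and ATF4 genes hold both signs.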

How the results depend on the processing

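The 24 genes with the largest differences kept direction and call in every alternative in which they were tested (5 of them, Artn, Fam212a, Igfbp5, Ppapdc2 and Tram1l1, left the test with values above 2 required), among them Cyp1a1 (6.85 to 7.25), Cyp1b1 (4.69 to 5.07), Ahrr (2.79 to 3.60) and Tiparp (1.70 to 1.86), and of 67 called named genes 39 did. Edn1 left the test under that filter and the one on the 6 libraries at 2 h, and Usp17lb under the former. The 2261 genes called at 2 h fell to 585 as deposited and were 1634 to 1781 when 1 library was left out. As deposited the prior on the variance had 111.5 degrees of freedom and after centring 8.531, and 24 named genes lost their call as deposited. The 75 genes at least 2-fold apart were 48 with quantile normalization, 34 with the filter on the 6 libraries at 2 h, 166 with no filter, 31 with values above 2 required, 40 with an offset of 5 reads, 27 with values below 0 set to 0, and 76 to 84 without 1 library. The 2460 genes unlike 4 h were 488 as deposited and 1956 to 2326 without 1 library, and the 9075 unlike 8 h were 8634 to 9272. Leaving out a library ended 42 calls in 12 named genes, mostly of small differences (Chek1, Rarg, Nop58 and Bag3). Reversed signs were, as deposited, Aldh3a1 (0.05) and Ptges3 (0.06), with quantile normalization Arnt (-0.01) and Hsp90ab1 (0.00), with median-ratio factors Arnt (0.00), with values below 0 set to 0 Edn1 (-0.07), with the GC trend removed Aldh3a1 (0.00), and without 1 library Aldh3a1 (range over the 6 fits -0.06 to 0.01), Ptges3 (-0.04 to 0.04) and Stc2 (-0.11 to 0.14). Of these genes Edn1 alone was called, and the cause was not tested. Replicate numbers did not pair the samples (correlations of same-numbered deviations 0.15, 0.22 and -0.16, and BMH-21 replicate 1 lay nearest CX-5461 replicate 3), and with a replicate block 2120 genes were called, 73 at least 2-fold, 2284 unlike 4 h and 8942 unlike 8 h, and Cyp2s1, uncalled without it, was called (0.27, limma adjusted p = 0.036). Depth limits the low genes: 3 reads stood at a log2 value of -4.06 to -3.59 in the 2 h libraries.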

Other observations

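Small nucleolar RNAs, which guide modification of ribosomal RNA and are mostly not polyadenylated, were tested in 48 cases. Their median difference was -0.18, their medians against untreated cells were -0.40 with BMH-21 and -0.11 with CX-5461, and 4 were called lower (8.33%) and 0 higher at 2 h, where 7.58% and 7.83% of all genes were. Their median differences at 4 h and 8 h were -0.37 and -0.89. Long intergenic noncoding RNAs, 177 tested, had a median of 0.06, with 9.60% called higher and 3.95% lower. These classes come from GENCODE M21, and the library kit selects polyadenylated RNA.

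Genes with long spans were called less often: of the tenth with the longest genes, 118.4 to 2961 kb, 4.87% were called higher and 2.40% lower, and of the tenth with the shortest, up to 4.23 kb, 5.90% and 9.33%. Dbhos and Fam163b, neighbours on the same strand of chromosome 2 (27144898 to 27162703 and 27110380 to 27142491), lie on opposite sides of the comparison, at 1.31 and -1.05. Hey2 and its relative Heyl were both lower with BMH-21, at -1.04 and -1.01 (limma adjusted p = 6.3e-05 and 0.0013). The second was singled out after its value was seen and is below the level for named genes. No list of Notch genes was examined.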
